A study of Homo sapiens with 3 samples.

Results

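The genes described here are 10 heterogeneous nuclear ribonucleoprotein (hnRNP) genes, HNRNPA1, HNRNPA2B1, HNRNPC, HNRNPD, HNRNPDL, HNRNPH1, HNRNPK, HNRNPL, HNRNPM and HNRNPU. They were chosen by name, and every transcript listed under these names on a chromosome was taken, which gave 202 of 226830 transcripts and 10 of 60551 genes. Of the 202 transcripts, 112 were annotated as protein coding, 25 as nonsense-mediated decay, 54 as retained intron and 11 as long noncoding RNA. The series examined gene expression after knockdown of SRSF5, a serine and arginine rich splicing regulator, in HaCaT cells, an immortalized human keratinocyte line. Total RNA was sequenced from 3 libraries, 1 with SRSF5 siRNA No.1 (siRNA 1), 1 with SRSF5 siRNA No.2 (siRNA 2) and 1 with a control siRNA, each siRNA given at 10 nM with a lipid transfection reagent. The genotype label is SRSF5 knockdown for the SRSF5 siRNA libraries and WT for the control siRNA library. The control had 1 library and each SRSF5 siRNA had 1, no label says that a transfection was repeated, and the p-values below reflect just the spread between these samples, which may be technical.

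HnRNP proteins bind pre-mRNA as it is made, package it, and take part in splice site choice, export, stability and translation of the mRNA. Nonsense-mediated decay is a surveillance pathway that degrades an mRNA when the ribosome stops well upstream of an exon junction, which usually means a stop codon ahead of the last exon. Genes of splicing factors, hnRNP genes among them, are known to make such transcripts by including an extra exon or by splicing an intron in the 3′ untranslated region, and several of these proteins limit their own level in that way.

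The stop codons of the decay transcripts are shown first, since it is their place that puts a transcript in the decay class. All 25 decay transcripts had the same exons in the deposited files and in GENCODE v29 (GRCh38), as did 198 of the 202 transcripts. In all 25 the stop codon lay more than 50 bases before the last exon junction, at 75 to 1631 bases and a median of 272. Among the 62 coding transcripts with an annotated stop and the same exons in both sources, 1 lay more than 50 bases before it. For 9 of the 10 genes the decay transcript with the highest mean FPKM is given below with 12 bases on either side of its stop codon, which is in capitals, and HNRNPDL-202 is added to show a stop codon that coding and decay transcripts share.
HNRNPA2B1-203: aggagccgatacTGAgcttcttcctat
HNRNPC-232: agtctggaaagtTGAaaggagatgacc
HNRNPD-211: tacaaaccatacTAAattattccattt
HNRNPDL-202: taccagccatacTAAaggagaacattg
HNRNPDL-205: atgaagagccagTAAaaaaattgttag
HNRNPH1-236: gctttgagaggaTGAggcgtggtgctt
HNRNPK-207: gagtatcagtgcTGAtattgaaacaat
HNRNPL-202: ctaactcactgtTGAagcgtccaatgg
HNRNPM-214: atgtgctgttgtTGAattcaagatgga
HNRNPU-225: ccctcccagaggTAGctgagtgctttg

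These stop codons fell into 2 kinds. In 9 decay transcripts of 6 genes the stop codon was also the annotated stop of 1 or more of these 62 coding transcripts. HNRNPD-211 and HNRNPDL-202, for example, end their reading frames at a stop of coding transcripts, 137 and 127 bases before the last junction. In the other 16 decay transcripts, of 8 genes, the stop codon was the annotated stop of none of these coding transcripts. HNRNPM-214 had the longest distance, 1631 bases, from its stop at chr19:8463599-8463601 to its last junction. Decay transcripts with a shared stop summed to 216 FPKM with siRNA 1, 236 FPKM with siRNA 2 and 216 FPKM in the control, and those with a stop of their own to 316 FPKM with siRNA 1, 303 FPKM with siRNA 2 and 319 FPKM in the control.

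The libraries held 42281109 reads with siRNA 1, 41269677 with siRNA 2 and 44586223 in the control, as recovered from the FPKM values. Of the reads on transcripts outside alternate scaffolds, mitochondrial transcripts took 15.1% with siRNA 1, 10.2% with siRNA 2 and 14.0% in the control. SRSF5, the targeted gene, had a summed FPKM of 44.3 with siRNA 1 and 18.7 with siRNA 2, against 94.1 in the control. All 10 keratinocyte markers were above 1 FPKM, at a summed 5934 FPKM with siRNA 1, 9699 FPKM with siRNA 2 and 4932 FPKM in the control. By the rule of 1.5-fold with both siRNAs 2 of them, KRT16 and KRT17, were higher (3.19% of all genes) and 0 were lower (1.47% of all genes). At any size 6 were above and 2 below the control with both, and their median log2 ratio was 0.17 with siRNA 1 and 0.90 with siRNA 2. Of the markers of other cells, 1 of 7 fibroblast, 1 of 6 melanocyte, 1 of 4 immune and 1 of 3 endothelial genes averaged 1 FPKM or more over the libraries, and TYR, MLANA and SOX10 were at 0 in all 3. The fibroblast collagen gene COL1A1 was higher with both siRNAs, at 5.02 FPKM with siRNA 1 and 4.89 FPKM with siRNA 2 against 2.51 FPKM in the control, and the endothelial cadherin gene CDH5 was lower, at 0.693 FPKM with siRNA 1 and 1.24 FPKM with siRNA 2 against 3.08 FPKM in the control. In bulk RNA, fewer cells of a type and less RNA per cell cannot be told apart. The part of these markers and of mitochondrial reads in the values below was not tested.

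The levels of 9 of the 10 genes lay between 83.9% and 120.4% of the control with either siRNA, and HNRNPH1 was at 149% of it with siRNA 1 and 121% with siRNA 2. FPKM values are per transcript, and the level of a gene is the sum over its transcripts, with ratios taken on log2(FPKM + 1). FPKM is divided by length, so the highest transcript of a class can be a short one that does not hold the most reads. HNRNPA2B1, HNRNPDL and HNRNPH1 were above the control with both siRNAs, HNRNPD, HNRNPK and HNRNPM were below it with both, and in HNRNPA1, HNRNPC, HNRNPL and HNRNPU the control lay between the siRNA libraries. Across all 13935 genes that averaged 1 FPKM or more, 30.1% were higher with both siRNAs and 29.4% lower. Of the 20 ratios, 2 for each gene, 17 were within 1.2-fold and 0 reached 1.5-fold. By the rule of at least 1.5-fold in the same direction with both siRNAs, 0 of 10 passed, where 4.66% of all genes did, so a count of 0 among 10 is near the background. The members' median log2 ratio was -0.01 with siRNA 1 and -0.01 with siRNA 2, against -0.03 and 0.05 over all genes, and their median absolute log2 ratio was 0.16 and 0.15, against 0.21 and 0.32. The 2468 genes at least as high as the lowest member in the control had a median absolute log2 ratio of 0.19 with siRNA 1 and 0.28 with siRNA 2.

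In limma on log2(FPKM + 1), whose spread comes from the difference between the siRNA libraries, 0 of 10 genes passed at a Benjamini-Hochberg adjusted p below 0.05, where 0% of all genes did. The smallest adjusted p of a member was 1.00 and the smallest unadjusted p 0.275. At an unadjusted p below 0.05 there were 0 of 10 members, against 2.97% of all genes, and robust limma called 0 members and 0.0215% of all genes. The limma standard errors of the members' log2 ratios were 0.37 to 0.39, larger in 9 of 10 members than the ratio itself. A difference within that error is not shown to be absent. Between the siRNAs 0 of 10 genes differed by 1.5-fold, where 24.3% of all genes did.

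**Figure D1:**
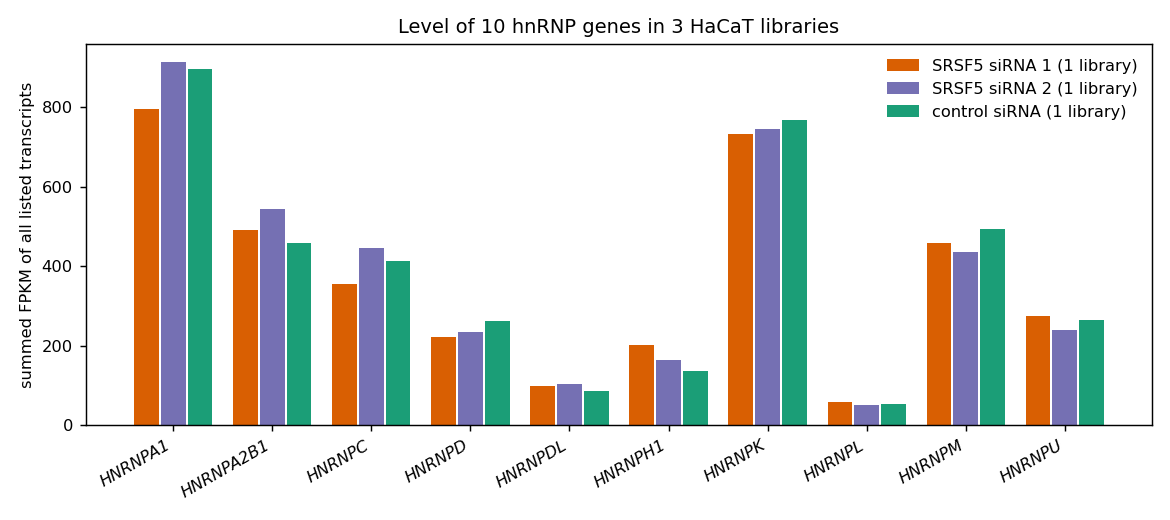
Summed FPKM of the listed transcripts (vertical axis, linear from 0) of each of the 10 hnRNP genes, with 1 bar for each library in the order siRNA 1, siRNA 2 and control. There are no error bars, since each bar is 1 library. HNRNPA1 and HNRNPK are the highest in every library, HNRNPL is the lowest, and only HNRNPH1 shows a siRNA 1 bar well above its control bar (203 against 136 FPKM).

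HNRNPA1 and HNRNPA2B1 encode closely related proteins that bind many nuclear RNAs, the first well known as a repressor of exon inclusion and the second also for RNA transport. HNRNPA1 (ENSG00000135486.17, chr12:54280193-54287088, plus strand, GRCh38) had a summed FPKM of 795 with siRNA 1, 913 with siRNA 2 and 896 in the control. The control lay between the siRNA libraries, with log2 ratios of -0.17 for siRNA 1 and 0.03 for siRNA 2. Its single decay transcript, HNRNPA1-205, was at 64.7 FPKM with siRNA 1, 74.9 with siRNA 2 and 73.3 in the control, which is 8.14% of the gene with siRNA 1, 8.20% with siRNA 2 and 8.18% in the control. The 9 coding transcripts held 69.7% with siRNA 1, 70.1% with siRNA 2 and 70.0% in the control. By FPKM the highest of them was HNRNPA1-206, of 530 bases, at 94.6 with siRNA 1, 108 with siRNA 2 and 112 in the control. It held 2120 reads with siRNA 1, 2369 with siRNA 2 and 2642 in the control. Of the retained intron transcripts, which held 20.7% of the gene with siRNA 1, 20.6% with siRNA 2 and 20.8% in the control, HNRNPA1-212 was the highest at 118 FPKM with siRNA 1, 136 with siRNA 2 and 136 in the control. HNRNPA1 has 76 listed pseudogenes and near copies. They held reads equal to 14.5% of its own with siRNA 1, 13.9% with siRNA 2 and 12.05% in the control. How reads that match several loci were placed is unknown, so its level is uncertain to an extent that these values do not give.

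HNRNPA2B1 (ENSG00000122566.21, chr7:26173057-26201529, minus strand) was higher with both siRNAs, at 492 FPKM with siRNA 1 and 545 FPKM with siRNA 2 against 457 FPKM in the control, 108% and 119% of it. Its log2 ratio was 0.18 ± 0.10 (SD, n = 2), and it did not pass limma (SE 0.38, adjusted p = 1.00). The decay transcript HNRNPA2B1-203 was at 82.1 FPKM with siRNA 1, 90.6 with siRNA 2 and 76.6 in the control, and it was 16.7% of the gene with siRNA 1, 16.6% with siRNA 2 and 16.8% in the control. The retained intron class had the second largest share, 35.7% with siRNA 1, 36.0% with siRNA 2 and 36.1% in the control, with HNRNPA2B1-207 at 117 FPKM with siRNA 1, 131 FPKM with siRNA 2 and 111 FPKM in the control. Coding transcripts held 46.6% with siRNA 1, 46.5% with siRNA 2 and 46.0% in the control, with HNRNPA2B1-202 at 95.3 FPKM with siRNA 1, 106 with siRNA 2 and 87.6 in the control. Gene and decay transcript were both lowest in the control and highest with siRNA 2. Reads in shared exons are divided among transcripts, as given below, so the decay transcript is not a separate result.

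HNRNPC encodes a nuclear protein that binds uridine tracts. The gene (ENSG00000092199.17, chr14:21209136-21269494, minus strand) had 354 FPKM with siRNA 1, 445 FPKM with siRNA 2 and 413 FPKM in the control. The siRNA libraries were farther apart than for any other member, with log2 ratios of -0.22 for siRNA 1 and 0.11 for siRNA 2. Of its 33 transcripts, 26 were coding and held 80.4% with siRNA 1, 80.5% with siRNA 2 and 80.3% in the control, the highest coding share of the 10 genes. Its decay transcript HNRNPC-232 was at 11.9 FPKM with siRNA 1, 14.99 with siRNA 2 and 13.8 in the control, or 3.35% of the gene with siRNA 1, 3.36% with siRNA 2 and 3.34% in the control. The highest coding transcript, HNRNPC-212, was at 18.4 FPKM with siRNA 1, 22.8 FPKM with siRNA 2 and 21.5 FPKM in the control, and the highest retained intron transcript, HNRNPC-210, at 12.8 FPKM with siRNA 1, 16.3 FPKM with siRNA 2 and 15.2 FPKM in the control. Its 13 listed copies held reads equal to 3.34% of those of the gene with siRNA 1, 3.84% with siRNA 2 and 2.84% in the control.

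HNRNPD and HNRNPDL lie close together on chromosome 4. HNRNPD encodes AUF1, which binds AU-rich elements and affects mRNA stability, and HNRNPDL encodes a similar protein. HNRNPD (ENSG00000138668.19, chr4:82352498-82374503, minus strand) was lower with both siRNAs, at 221 FPKM with siRNA 1 and 234 FPKM with siRNA 2 against 263 FPKM in the control. The log2 ratio was -0.21 ± 0.06 (SD, n = 2), the most negative of the 10 genes, and did not pass limma (SE 0.37, adjusted p = 1.00). HNRNPD-211, the decay transcript with the coding stop, was at 21.6 FPKM with siRNA 1, 23.4 with siRNA 2 and 26.6 in the control. HNRNPD-209, whose stop is its own, was at 19.7 FPKM with siRNA 1, 20.4 FPKM with siRNA 2 and 22.8 FPKM in the control. Both were below the control in both siRNA libraries, as was the gene, with which they share reads. Together they made 18.7% of the gene with siRNA 1, 18.7% with siRNA 2 and 18.8% in the control. The highest coding transcript, HNRNPD-208, was at 25.1 FPKM with siRNA 1, 27.7 FPKM with siRNA 2 and 30.4 FPKM in the control and the only retained intron transcript, HNRNPD-210, at 4.50 FPKM with siRNA 1, 4.84 FPKM with siRNA 2 and 5.48 FPKM in the control.

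HNRNPDL (ENSG00000152795.17, chr4:82422564-82430408, minus strand) was higher with both siRNAs, at 99.6 FPKM with siRNA 1 and 104 FPKM with siRNA 2 against 86.1 FPKM in the control. The log2 ratio was 0.24 ± 0.04 (SD, n = 2; limma SE 0.37, adjusted p = 1.00), and the siRNA libraries differed by 0.06 on the log2 scale. Of its 10 transcripts 4 are decay transcripts, the largest part of any member, and they had 49.0 FPKM with siRNA 1, 50.7 with siRNA 2 and 42.4 in the control. The 6 coding transcripts had 50.6 FPKM with siRNA 1, 52.8 FPKM with siRNA 2 and 43.7 FPKM in the control, nearly the same sums. The decay share was 49.2% with siRNA 1, 49.0% with siRNA 2 and 49.2% in the control. HNRNPDL-205, which has a stop of its own, was the highest of the 4 at 14.9 FPKM with siRNA 1, 15.5 FPKM with siRNA 2 and 13.1 FPKM in the control, beside the coding HNRNPDL-206 at 13.9 FPKM with siRNA 1, 14.5 FPKM with siRNA 2 and 12.03 FPKM in the control. No retained intron transcript was listed for the gene.

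HNRNPH1 encodes a protein that binds G-rich sequences near exons. The gene (ENSG00000169045.17, chr5:179614178-179634784, minus strand) had 203 FPKM with siRNA 1 and 165 FPKM with siRNA 2, against 136 FPKM in the control. It had the largest ratio of the 10 genes, 149% of the control with siRNA 1 and 121% with siRNA 2. The log2 ratios were 0.58 for siRNA 1 and 0.28 for siRNA 2, with counting errors of 0.03 each, and their mean of 0.43 ± 0.21 (SD, n = 2) did not pass limma (SE 0.37, unadjusted p = 0.275, adjusted p = 1.00). By reads the order was the same, with 7777 reads with siRNA 1 and 6138 reads with siRNA 2 against 5467 reads in the control. The ratio with siRNA 1 lay just under the 1.5-fold rule and that with siRNA 2 well under it.

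The 50 transcripts of HNRNPH1 were the most of any member. Its 4 decay transcripts summed to 19.0 FPKM with siRNA 1 and 16.0 FPKM with siRNA 2 against 12.5 FPKM in the control, and its coding transcripts to 114 FPKM with siRNA 1 and 91.7 FPKM with siRNA 2 against 76.1 FPKM in the control. The decay share was 9.35% with siRNA 1 and 9.73% with siRNA 2 against 9.19% in the control, and the gain of 0.54 points with siRNA 2 was the largest change of a decay share among the 10 genes. HNRNPH1-219, a decay transcript of 501 bases, accounted for most of it, at 3.34 FPKM with siRNA 1 and 3.34 FPKM with siRNA 2 against 2.12 FPKM in the control. The highest decay transcript, HNRNPH1-236, was at 7.08 FPKM with siRNA 1, 5.53 FPKM with siRNA 2 and 4.73 FPKM in the control. By FPKM the highest coding transcript was HNRNPH1-244, of 143 bases, at 15.9 with siRNA 1, 12.04 with siRNA 2 and 10.8 in the control. It held just 96 reads with siRNA 1, 71 with siRNA 2 and 69 in the control. The highest retained intron transcript, HNRNPH1-240, was at 6.56 FPKM with siRNA 1, 5.10 FPKM with siRNA 2 and 4.37 FPKM in the control. All 4 decay transcripts were above the control with both siRNAs, as was the gene. They take part of the reads in exons shared with coding transcripts, as given below, so this is not a separate result.

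HNRNPK encodes a protein that binds cytidine-rich sequences through KH domains. The gene (ENSG00000165119.21, chr9:83968083-83980616, minus strand) had 733 FPKM with siRNA 1, 744 FPKM with siRNA 2 and 767 FPKM in the control. It was the steadiest member, with log2 ratios of -0.06 for siRNA 1 and -0.04 for siRNA 2 and 0.02 between the siRNAs. Its decay transcript HNRNPK-207 was the highest of the 25, at 133 FPKM with siRNA 1, 133 with siRNA 2 and 140 in the control, and it was 18.1% of the gene with siRNA 1, 17.9% with siRNA 2 and 18.2% in the control. HNRNPK-206, coding, was at 108 FPKM with siRNA 1, 110 FPKM with siRNA 2 and 114 FPKM in the control and HNRNPK-209, of the retained intron class, at 109 FPKM with siRNA 1, 108 FPKM with siRNA 2 and 115 FPKM in the control.

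HNRNPL, which binds CA-rich RNA, was the lowest member. The gene (ENSG00000104824.17, chr19:38836388-38852347, minus strand) had 58.0 FPKM with siRNA 1, 50.4 with siRNA 2 and 52.6 in the control, with log2 ratios of 0.14 for siRNA 1 and -0.06 for siRNA 2 that had counting errors of 0.04 each. Its decay transcript HNRNPL-202 was at 3.95 FPKM with siRNA 1, 3.51 with siRNA 2 and 3.58 in the control, or 6.82% of the gene with siRNA 1, 6.96% with siRNA 2 and 6.80% in the control. Its 8 retained intron transcripts held 43.5% with siRNA 1, 44.6% with siRNA 2 and 44.0% in the control, the highest such share of the members, with HNRNPL-207 at 4.60 FPKM with siRNA 1, 3.98 FPKM with siRNA 2 and 4.19 FPKM in the control. The coding HNRNPL-214 was at 7.05 FPKM with siRNA 1, 5.49 FPKM with siRNA 2 and 6.28 FPKM in the control, and its share with siRNA 2 was 10.9% against 11.9% in the control. That shift of -1.03 points was the largest of any member transcript. With siRNA 1 the share of HNRNPL-214 was 12.2%, on the other side of the control.

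HNRNPM, which binds GU-rich RNA, was lower with both siRNAs. The gene (ENSG00000099783.12, chr19:8444767-8489114, plus strand) had 459 FPKM with siRNA 1 and 436 FPKM with siRNA 2 against 493 FPKM in the control, and its log2 ratio was -0.14 ± 0.05 (SD, n = 2; limma SE 0.38, adjusted p = 1.00). The decay transcript HNRNPM-214 was at 20.6 FPKM with siRNA 1, 20.2 with siRNA 2 and 22.1 in the control, or 4.48% of the gene with siRNA 1, 4.62% with siRNA 2 and 4.48% in the control. The retained intron share was 15.8% with siRNA 1, 15.02% with siRNA 2 and 15.7% in the control, and the difference of -0.67 points with siRNA 2 was the largest of that class. HNRNPM-210, coding and of 298 bases, was at 89.5 FPKM with siRNA 1, 81.6 FPKM with siRNA 2 and 96.0 FPKM in the control. HNRNPM-209, of the retained intron class, was at 40.8 FPKM with siRNA 1, 36.9 FPKM with siRNA 2 and 43.1 FPKM in the control.

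HNRNPU encodes a large nuclear protein, also called scaffold attachment factor A, that binds RNA and chromatin. The gene (ENSG00000153187.20, chr1:244840638-244864560, minus strand) had 273 FPKM with siRNA 1, 240 with siRNA 2 and 264 in the control, with log2 ratios of 0.05 for siRNA 1 and -0.14 for siRNA 2. It had 9 decay transcripts of 31, and their sum of 106 FPKM with siRNA 1, 91.1 with siRNA 2 and 102 in the control was close to that of its 10 coding transcripts, 100.4 FPKM with siRNA 1, 89.2 FPKM with siRNA 2 and 97.6 FPKM in the control. The decay share was 38.7% with siRNA 1, 38.0% with siRNA 2 and 38.5% in the control. HNRNPU-225, of 461 bases, was the highest decay transcript at 25.6 FPKM with siRNA 1, 22.1 FPKM with siRNA 2 and 24.9 FPKM in the control. The coding HNRNPU-214 was at 16.4 FPKM with siRNA 1, 14.4 FPKM with siRNA 2 and 15.9 FPKM in the control, and HNRNPU-202, of the retained intron class, at 9.82 FPKM with siRNA 1, 8.66 FPKM with siRNA 2 and 9.42 FPKM in the control.

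Ranked by the summed FPKM in the control, the order was HNRNPA1, HNRNPK, HNRNPM, HNRNPA2B1, HNRNPC, HNRNPU, HNRNPD, HNRNPH1, HNRNPDL and HNRNPL. HNRNPU and HNRNPD were 264 and 263 FPKM there and over the siRNA libraries, at 257 ± 23.9 and 227 ± 9.38 FPKM (SD, n = 2), they differed by less than the sum of their SDs. HNRNPM and HNRNPA2B1 stood in the other order with the siRNAs, at 448 ± 15.9 and 518 ± 37.3 FPKM, and HNRNPC at 400 ± 64.5 FPKM overlapped HNRNPM. HNRNPA1 at 854 ± 83.1 FPKM and HNRNPK at 739 ± 7.73 FPKM were apart by little more than the spread of the first. By reads (CPM) in the control, which are not divided by length, HNRNPK with 1129 CPM and HNRNPA2B1 with 1118 CPM came before HNRNPA1 with 870 CPM. All 10 genes were at or above 82.3% of the tested genes by summed FPKM in the control. Together they held 0.544% of the reads outside alternate scaffolds with siRNA 1, 0.567% with siRNA 2 and 0.552% in the control.

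**Figure D2:**
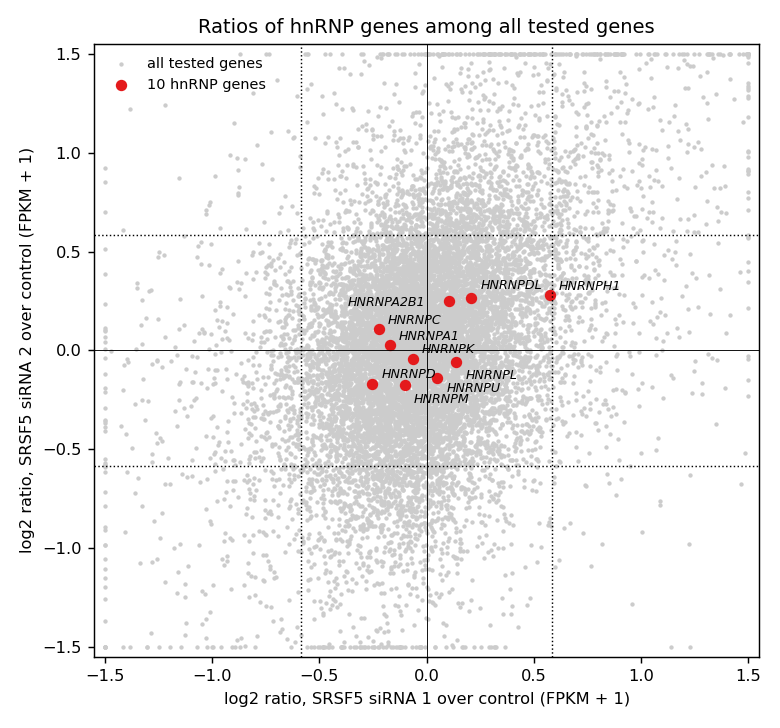
Log2 ratio of FPKM + 1 with siRNA 2 over the control (vertical) against siRNA 1 over the control (horizontal) for all 13935 tested genes in grey and the 10 hnRNP genes in red; dotted lines mark 1.5-fold, and grey points beyond 1.5 on either axis are drawn at the edge. Both axes share the 1 control library. All red points lie inside the dotted lines, HNRNPH1 nearest to one of them at 0.58 on the horizontal axis.

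The decay share of each gene stayed within 1 point of the control. Reads in shared exons are divided among classes, as given below, so a change of isoform use may move this share little. The values and tests of shares therefore cannot show that isoform use was unchanged. Over the 10 genes decay transcripts held 531 FPKM with siRNA 1, 539 FPKM with siRNA 2 and 535 FPKM in the control, or 14.4% of the summed FPKM with siRNA 1, 13.9% with siRNA 2 and 14.0% in the control. The share was higher with both siRNAs in 4 genes (HNRNPC, HNRNPH1, HNRNPL and HNRNPM) and lower with both in 4 (HNRNPA2B1, HNRNPD, HNRNPDL and HNRNPK), and 0 of 20 changes exceeded 1 point. A change of at least 5 points with both siRNAs was seen in 0 of 10 members, where 0.0248% of the 4026 genes with decay and coding transcripts showed one. The median absolute change was 0.06 points with siRNA 1 and 0.15 points with siRNA 2, against 0.32 and 0.37 points over those genes. Genes down to 5 FPKM, below every member, are among them, and no comparison of shares matched for level was made. In limma, fitted to arcsine-transformed shares, 0 of 10 members passed at an adjusted p below 0.05 (smallest adjusted p 1.00, smallest unadjusted p 0.339), where 0% of genes did. At an unadjusted p below 0.05 there were 0 members and 3.53% of genes.

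Retained intron and coding shares stayed as near to the control, and the same limit holds for them. Among the 9 members with retained intron transcripts the share was higher with both siRNAs in 2 and lower with both in 4, and the largest change was 0.67 points in size. None of the 9 changed by 5 points with both siRNAs, where 0.0373% of 5369 genes did, and limma called 0 of the 9 at an adjusted or an unadjusted p below 0.05 (smallest unadjusted p 0.633). The coding share was higher with both siRNAs in 5 of 10 genes and lower with both in 0, with changes of at most 0.74 points in size. Directions of coding, decay and retained intron shares were not counted over all genes, so these counts have no background to be read against. Of the 202 single transcripts, 0 moved by 5 points of its gene with both siRNAs, where 0.0523% of 89782 transcripts did, and 0 moved by even 1 point in the same direction with both. In limma 0 of the 202 had an unadjusted p below 0.05, against 3.67% of all transcripts.

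**Figure D3:**
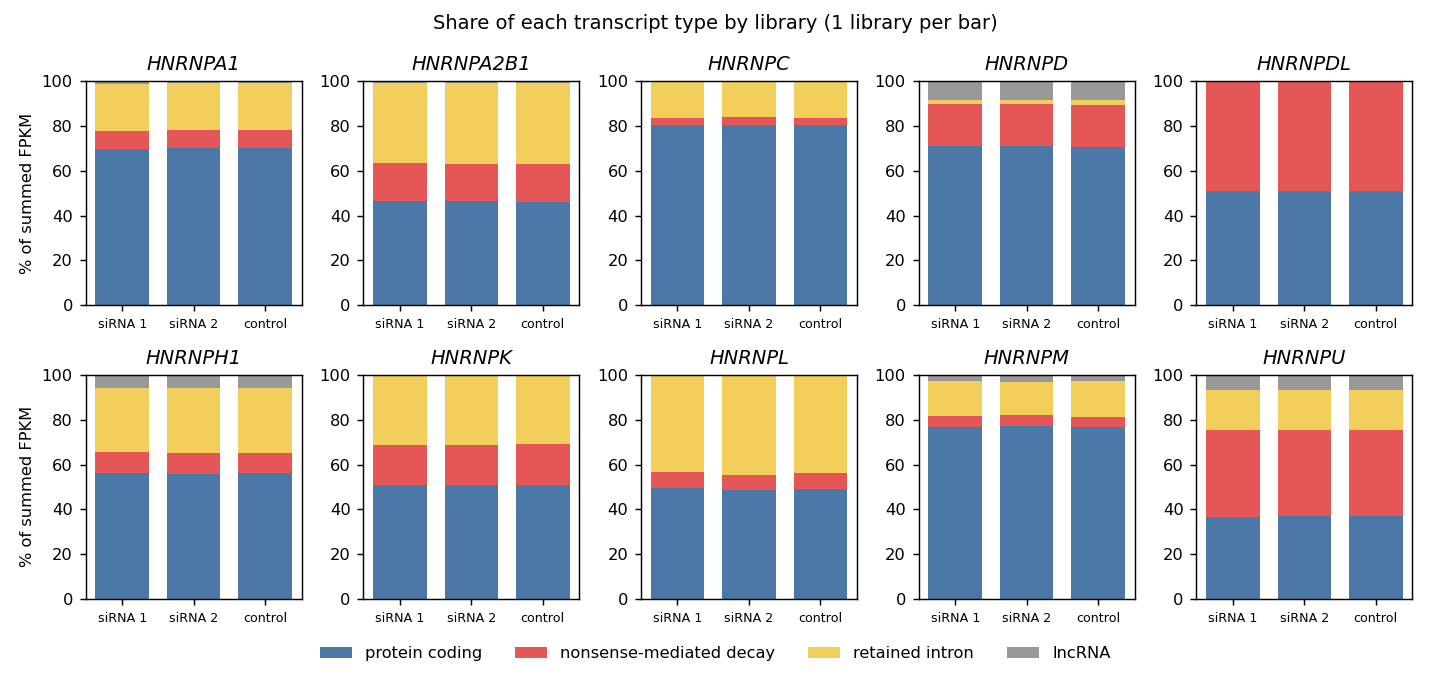
Share of the summed FPKM (vertical axis, 0 to 100%) in each transcript class for the 10 genes, with 1 bar for each library in the order siRNA 1, siRNA 2 and control. Within a gene the bars are nearly identical, while between genes the decay part differs, with 3.34% in HNRNPC and 49.2% in HNRNPDL in the control.

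What these shares hold depends on how the values were made. The FPKM values came out as hundredths of reads, and a read was taken to be divided equally among all transcripts it overlaps. In genes listed with 2, 3, 4 and 5 transcripts of equal value the most common value was 50, 33, 25 and 20 hundredths of a read. In genes with 1 transcript it was 100. Only genes whose transcripts all held the same low value were counted, and 40.2% to 60.5% of them held the most common value. These values show that reads were divided. Since the genes were picked for equal values, they cannot show that division was always equal, which was taken as given. Under this division a decay transcript takes part of every read in the exons it shares with coding transcripts. Across the 10 genes the decay share of the FPKM in the control followed the share of transcripts listed as decay (Spearman's rho 0.99, Pearson's r 0.98, n = 10 genes from 1 library, a description without a test), and for the retained intron class these were 0.95 and 0.95. HNRNPDL, with 40.0% of its transcripts listed as decay, had 39.1% of its divided reads there in the control. The sums of the decay class are therefore not the amounts of decay isoforms.

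Sequence of decay transcripts outside the exons of coding transcripts was short in most members, and other noncoding transcripts may share it. HNRNPA2B1, HNRNPC and HNRNPM had 0 bases of decay transcripts outside the exons of coding transcripts, HNRNPA1 had 1, HNRNPK 12, HNRNPL 79, HNRNPH1 108, HNRNPDL 125, HNRNPD 162 and HNRNPU 5274. For genes with such bases, limits were computed for the reads that touch a decay transcript and no coding transcript. Such reads may also touch retained intron transcripts. The limits are the lowest and highest number that the divided values of all transcripts at the locus allow if each read was divided equally. Reads could span up to 150 bases, and no shortest length was set. At this span the lowest number was 0 in all 7 of these genes and all 3 libraries. With a span of at most 100 bases HNRNPU had a lowest number above 0 in 2 libraries, 11.2 reads with siRNA 1 and 38.2 reads in the control, against 0 with siRNA 2.

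In HNRNPDL at most 0.462% of the reads with siRNA 1, 0.389% with siRNA 2 and 0.353% in the control could touch a decay transcript and no coding one, which is 36.4 reads with siRNA 1, 31.2 with siRNA 2 and 25.3 in the control. The decay share of 49.0% to 49.2% in the FPKM of the same gene is another measure, since it holds parts of reads in shared exons. HNRNPDL has 125 bases of decay transcripts outside coding exons, and a read that also reaches a coding exon is left out of these limits. They are therefore not limits on the amount of decay isoforms. HNRNPL had upper limits of 0.343% with siRNA 1, 0.422% with siRNA 2 and 0.415% in the control and HNRNPH1 of 0.744% with siRNA 1, 1.05% with siRNA 2 and 0.723% in the control. In HNRNPU, whose decay transcripts have the most sequence outside coding exons, the upper limits were 5.12% with siRNA 1, 4.80% with siRNA 2 and 4.27% in the control. The limits were wide for HNRNPD, at 16.7% with siRNA 1, 16.7% with siRNA 2 and 16.9% in the control, for HNRNPK, at 10.3% with siRNA 1, 10.2% with siRNA 2 and 10.4% in the control, and for HNRNPA1, at 3.93% with siRNA 1, 4.02% with siRNA 2 and 3.67% in the control. HNRNPK has 12 bases of decay transcripts outside coding exons and HNRNPA1 has 1. Since no shortest read length was set, their upper limits may count reads shorter than any that were sequenced. In each gene the ranges of the 3 libraries overlapped from 0 upwards, so no difference in decay reads between libraries was detectable by these limits, and one that lies inside them could not be seen.

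Reads that touch a retained intron transcript and no coding transcript, which may also touch decay transcripts, were bounded away from 0 in all 3 libraries for 3 genes. In HNRNPH1 they made 1.73% to 6.74% of the reads with siRNA 1, 2.02% to 7.42% with siRNA 2 and 1.68% to 6.77% in the control. For HNRNPL the limits were 2.71% to 19.2% with siRNA 1, 3.04% to 20.002% with siRNA 2 and 2.65% to 19.4% in the control. HNRNPU had 1.17% to 7.22% with siRNA 1, 1.16% to 6.98% with siRNA 2 and 1.01% to 6.44% in the control. Within each of the 3 genes the ranges of the libraries overlapped almost wholly. These limits carry no counting error, and for HNRNPL the lowest numbers were 89.0 reads with siRNA 1, 85.6 with siRNA 2 and 82.8 in the control. With a span of up to 400 bases they were 22.0 reads with siRNA 1, 24.6 with siRNA 2 and 19.1 in the control.

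**Figure D4:**
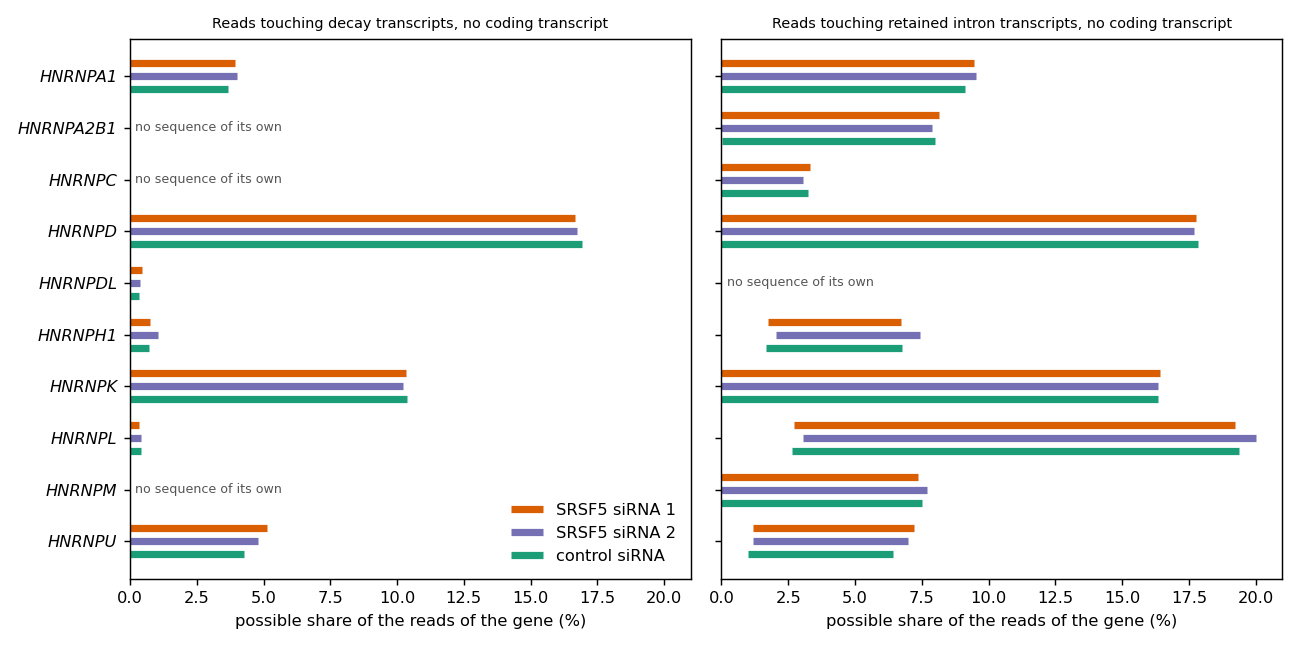
Possible share of the reads of each gene (horizontal axis, %) that touch decay transcripts (left) or retained intron transcripts (right) and no coding transcript, drawn from the lowest to the highest value that the data allow, with siRNA 1 above siRNA 2 above control. On the left all bars start at 0 and end at 0.353% in the control for HNRNPDL and at 16.9% for HNRNPD; on the right the bars of HNRNPH1, HNRNPL and HNRNPU start above 0.

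Other genes of the family and the decay machinery were read by the same rule. Of 23 related genes, among them HNRNPA0, HNRNPF, the PTBP and PCBP genes and TARDBP, 0 were at least 1.5-fold higher with both siRNAs (3.19% of all genes) and 0 at least 1.5-fold lower (1.47% of all genes), with 5 above and 7 below the control with both at any size. Their median log2 ratio was -0.07 with siRNA 1 and 0.07 with siRNA 2. Named after their values were seen, HNRNPAB and HNRNPF had the lowest mean log2 ratios of these, HNRNPAB with 115 FPKM with siRNA 1 and 119 FPKM with siRNA 2 against 168 FPKM in the control. HNRNPF was at 206 FPKM with siRNA 1 and 238 FPKM with siRNA 2 against 304 FPKM in the control. Of 14 decay factors, from UPF1, the helicase at the centre of the pathway, to the exon junction proteins EIF4A3, MAGOH, RBM8A and CASC3, 0 were 1.5-fold higher and 0 lower with both, with medians of -0.12 for siRNA 1 and 0.05 for siRNA 2, and 5 were above and 5 below the control with both at any size. In limma 0 of the 37 genes passed, and 0 had an unadjusted p below 0.05.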

How the data were processed

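Per the file headers, the authors deposited FPKM per transcript with exons, strand and length. The submitters' processing notes list GRCm38, mm10 and GRCh38.p12. The sources used here give no aligner and no counter. Exons equal to GENCODE v29 in 198 of 202 member transcripts put the coordinates on GRCh38. FPKM times length was a whole number of hundredths of a read (tolerance 0.05) in 100% of values. A model of reads divided among overlapping transcripts fitted 10 of 10 members, and counting each base for every transcript it overlaps fitted 7 of 10. The amount in each set of transcripts was free in both fits, and the first model allowed every set of the second and more. These fits therefore cannot show that reads were divided, which rests on the common hundredths of a read given above. Strand was used in counting, since a single-exon transcript inside another exon never held more than that exon's transcript on its own strand (0 of 2134 pairs) but did so in 49 of 213 pairs on opposite strands. The placing of reads that match several loci is unknown, which leaves near-identical copies uncertain.

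Transcripts on alternate scaffolds were left out (226830 of 247012 were kept). Gene levels are summed FPKM. limma 3.58.1 (R 4.3.3) with trend was fitted to log2(FPKM + 1) over 13935 genes that averaged 1 FPKM or more, and to arcsine square roots of shares in genes of at least 5 FPKM in each library, with 2 siRNA libraries against 1 control, 1 residual degree of freedom and Benjamini-Hochberg adjustment over all features. This takes the single control to vary as the siRNA libraries do. Limits on reads came from linear programming in scipy 1.17.1. In data simulated on 13935 genes, limma recovered 96% of 100 changes of log2 size 3 and 4% of those of size 1, and the 1.5-fold rule 100% and 63%. Among unchanged genes they took 0.124% and 13.0%. The simulated spread came from the difference between the siRNAs, and changes were planted only in genes of mean log2 level above 3. In the real data the 1.5-fold rule took 4.66% of all genes, so the simulated spread did not match the data and these rates do not carry over to them. In 130 of 130 simulated limits the planted reads lay inside. The planted values were made with the same model, so this checks the computation and not whether the limits hold for the real reads. Counting errors cover counting only.

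The members, lists and tests were chosen with earlier results of these data known. Named are all 10 members, the highest coding, decay and retained intron transcript of each, any transcript whose share moved 5 points with both siRNAs, and related genes that passed the 1.5-fold rule. HNRNPD-209, HNRNPDL-202, HNRNPH1-219, HNRNPAB, HNRNPF and the markers COL1A1, CDH5, KRT16 and KRT17 fall outside that rule and were named after their values were seen. No count model was run. The design had planned coverage of isoform-specific segments, and limits on reads replaced it once the values were taken to be divided reads. Alternatives were other gene summaries, pseudocounts, filters, scalings, thresholds, class denominators, leaving out a siRNA library and other read spans. The sequence at the stop codon of 1 member is not reported here.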

Additional observations from a re-analysis of the deposited data

How the results depend on the processing

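The count of members at 1.5-fold with both siRNAs was 0 under the 9 alternatives that could change it. Over all genes that count was 649, and it was 277 with the mean FPKM over transcripts, 380 with the highest transcript, 992 with a pseudocount of 0.1, 141 at 2-fold, and 1624 to 3245 with 1 siRNA library left out. Genes with a limma adjusted p below 0.05 were 0, and 5 with the highest transcript, 2 with coding transcripts only and 3 with robust limma. The median change of the members' decay share, -0.03 points, was -0.040 with decay plus coding transcripts as denominator, -0.19 as a ratio of means per transcript, and -0.017 to -0.0031 with 1 siRNA library left out. The median change of the retained intron share, -0.03 points, was -0.39 as a ratio of means per transcript, 0.0040 as a share of reads, and -0.096 to -0.015 with 1 siRNA library left out. The causes were not tested.

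For single members the sign changed in HNRNPL with the highest transcript (-0.0092). With 1 siRNA library left out it changed in HNRNPA1 (-0.17 to 0.026), HNRNPC (-0.22 to 0.11), HNRNPL (-0.060 to 0.14) and HNRNPU (-0.14 to 0.050), in which the control lies between the siRNAs. Alternatives by reads in CPM and by read spans of 100 and 400 bases were chosen after seeing the data. With a span of 400 the highest decay share of HNRNPH1 in the control was 1.01%, and with 100 it was 0.536%. The lowest retained intron share of HNRNPL in the control was 0.614% with a span of 400, against 2.65%, and the lowest decay share of HNRNPU there was 0.118% with a span of 100, against 0. The planned settings for coverage of isoform-specific segments were not run, since the values were taken to be divided reads. No paired analysis was possible because the control has 1 library and the groups share fewer than 2 replicate numbers. With 1 library per transfection, depth limits little here beside the lack of replicates.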
